A study of Homo sapiens with 4 samples.

Results

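The genes described here are the mitochondrial solute carriers of the SLC25A family and the subunits of the protein import machinery of mitochondria. They were taken by symbol from the deposited count table: every row named SLC25A plus a number, every row named TOMM or TIMM plus a number (with or without a letter after it), and TIMMDC1. This gave 71 of the 27452 genes in the table, 46 carriers and 25 import subunits. The study used HepG2, an established human liver cancer line, with a short hairpin RNA against the transcription factor STAT3 (STAT3 shRNA) or with a control hairpin (Ctrl shRNA), and 2 libraries of each were sequenced. The labels give no time after hairpin delivery, no hairpin sequence and no further agent or allele. They do not say whether the numbers 1 and 2 stand for clones, hairpins, cultures or repeat preparations, so p-values measure only the spread between libraries, which may be technical. The comparison asked what lowering STAT3 did to the RNA of other genes.

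Most carriers of the SLC25A family sit in the inner mitochondrial membrane. They exchange ADP for ATP, phosphate, citrate, amino acids, cofactors and other solutes between the cytosol and the matrix. They are made in the cytosol and reach that membrane through the import machinery. The translocase of the outer membrane (TOM) is the entry gate. The TIM23 complex then takes proteins with a presequence into the matrix or inner membrane, while small TIM chaperones in the intermembrane space guide carriers to the TIM22 complex, which inserts them. Most carriers are thus cargo of the other class of genes described here.

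STAT3 itself checked the labels. Its level, in CPM (read counts scaled to library size with TMM factors), was 245.03 and 244.3 with Ctrl shRNA against 34.7 and 36.1 with STAT3 shRNA, a log2 fold change of -2.79 (SE 0.086; edgeR quasi-likelihood test, Benjamini-Hochberg adjusted p = 3.28e-07). Total counts ranged from 17694642 to 25862027 reads. The counts of libraries of the same group differed by more than sampling noise. Defining hepatocyte markers went against the HepG2 label: ALB had 0, 0, 0 and 3 reads and APOA1 0, 0, 1 and 2 reads in Ctrl shRNA 1 and 2 and STAT3 shRNA 1 and 2. HNF4A was at 1.27, 1.78, 7.20 and 4.95 CPM, and the other 5 of 8 listed hepatocyte markers were not analysed here. KRT7, a keratin of bile duct and other simple epithelia, was at 702 to 1166 CPM, and the summed level of the 4 bile duct markers was 1162 and 1285 CPM with Ctrl shRNA against 890 and 862 CPM with STAT3 shRNA. That sum follows KRT7, since KRT19 of the same list rose from 95.7 and 118.8 to 163.6 and 158.4 CPM. The rest of this list was almost absent and had too few reads to be tested. In the same order of libraries SOX9 had 3, 4, 9 and 9 reads and CFTR 3, 2, 12 and 6 reads. Of the 6 immune markers 3 were in the table, with sums of 11.1 and 14.8 against 24.5 and 28.2 CPM, nearly all of it CD68, while 4 of 5 fibroblast markers summed to 55.7 and 64.6 against 44.5 and 41.6 CPM. Here COL1A1 fell (log2 fold change -1.47) while DCN (0.46) and ACTA2 (1.08) rose. Endothelial markers (2 of 4 in the table) stayed between 1.16 and 1.75 CPM in sum, and the 2 erythroid markers were at 0 reads in all 4 libraries. The part of these markers in the results below was not tested, and in bulk RNA fewer cells of a type and less RNA per cell cannot be told apart. The libraries are called by their labels.

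Of the 71 genes, 65 had enough reads to be tested, 41 carriers and 24 import subunits. A gene counts as changed when its adjusted p, over all 15199 tested genes, is under 0.05. By this rule 35.5% of all tested genes changed, 16.8% higher and 18.7% lower with STAT3 shRNA. That balance depends on the scaling: of all genes 2552 were higher and 2844 lower here, against 2949 and 2412 with upper-quartile scaling and 1349 and 1186 with limma on log2(FPKM + 1). Under upper-quartile scaling 2 carriers rose and 11 fell, and 1 import subunit rose and 12 fell. Among the carriers 2 rose, 12 fell and 27 did not pass the test, so that 34.1% changed, a share near that of all genes. Among the import subunits 1 rose, 14 fell and 9 did not pass, so that 62.5% changed. Lower genes made up 29.3% of the tested carriers and 58.3% of the tested import subunits. The median log2 fold change was -0.09 for carriers and -0.31 for import subunits, beside 0.02 for all tested genes. The CPM of the groups did not overlap for 27 of 41 carriers (65.9%) and 22 of 24 import subunits (91.7%), against 70.8% of all tested genes. Whether the classes differ beyond chance was not tested. The remaining 6 genes had almost no reads: SLC25A2, SLC25A47 and SLC25A52 had 1 read each over all 4 libraries, TOMM20L had 4, and SLC25A34 and SLC25A41 had between 1 and 10 in each library.

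**Figure D1:**
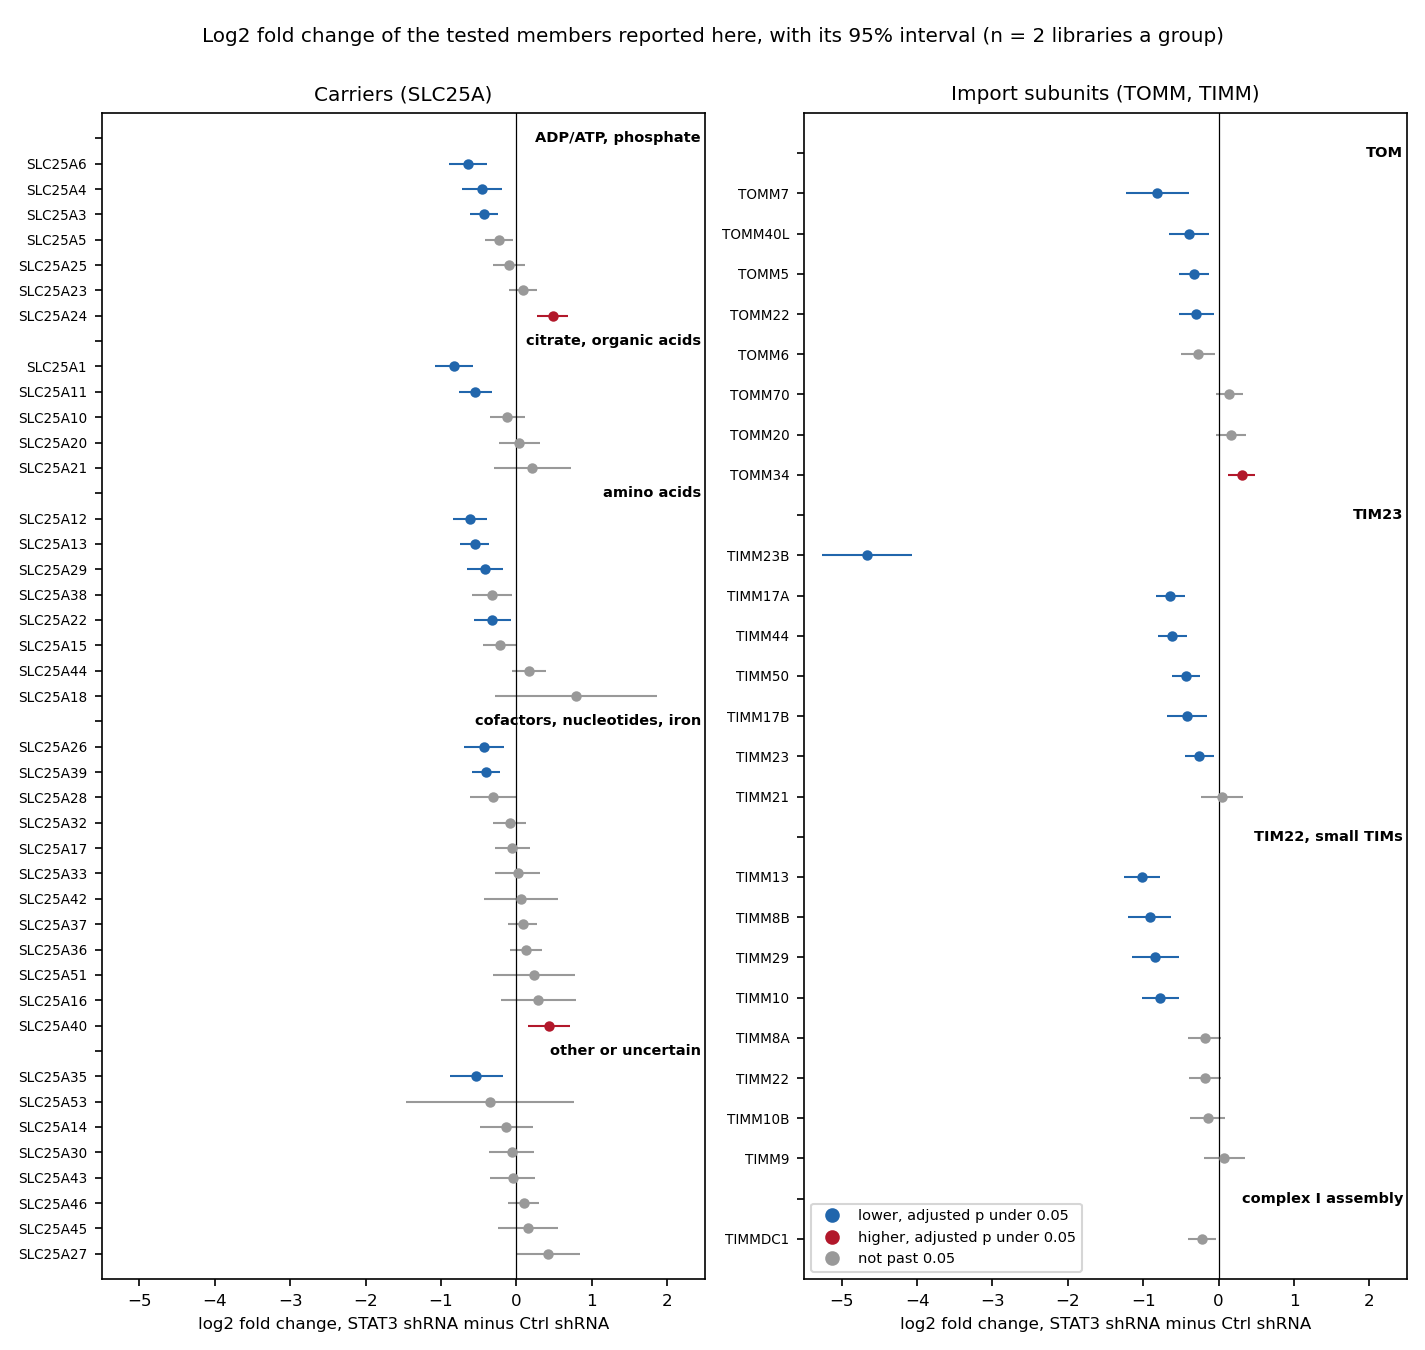
Log2 fold change (STAT3 shRNA minus Ctrl shRNA, x axis) of the tested genes reported here with 95% intervals from the edgeR fit, carriers on the left and import subunits on the right, ordered by role; blue and red points passed the adjusted p threshold of 0.05. Of the import subunits 14 lie to the left in blue, with TIMM23B far from the rest at -4.66, while most carriers lie near 0 in grey.

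The stretches of sequence before the transcription starts are shown for the genes whose call did not depend on the processing, since these are the ones the results turn on: SLC25A1, TIMM8B, TIMM10, TIMM13, TIMM23B, TIMM29 and TIMM44, to which TIMM23 is added as the near-identical partner of TIMM23B. RefSeq promoter windows on GRCh38.p14 were found for all of them but TIMM8B. GENCODE 29, the source of the gene positions given here, places some starts elsewhere. By GENCODE 29 the windows of TIMM13 and TIMM44 lie within these genes, with all 250 bases in exons. The TIMM13 match below is thus before the RefSeq start only. Bases in GENCODE 29 exons numbered 216 for TIMM23B, 199 for TIMM29, 94 for SLC25A1, 49 for TIMM10 and 40 for TIMM23. Each window holds the 250 bases before a RefSeq start, and 3 motifs were searched in it on both strands: the ETS factor motif CCGGAAG (reverse complement CTTCCGG), the NRF1 motif (GCGCA, any base, then GCGC, or its reverse complement) and the STAT motif TTCNNNGAA, which is its own reverse complement. Capitals mark matches, and sequences run 5′ to 3′ on the strand of the gene.
TIMM10, 65 to 39 bases before the start, chr11:57530793-57530819, minus strand: gtatttaattCCGGAAGcgagtttgaa
TIMM10, 23 to 1 bases before the start, chr11:57530755-57530777, minus strand: gactttcctcCCGGAAGtaaccc
TIMM13, 20 to 1 bases before the start, chr19:2427587-2427606, minus strand: gggcggcccgCTTCCGGcgc
TIMM23, 58 to 32 bases before the start, chr10:45972431-45972457, plus strand: gcgcttccagCTTCCGGggcgcacatt
TIMM23B, 59 to 33 bases before the start, chr10:49941994-49942020, plus strand: ccgtcaggcgCTTCCGGCTTCCGGggc
TIMM29, 99 to 73 bases before the start, chr19:10928712-10928738, plus strand: tgggaagccaCTTCCGGtaaagttgGC
TIMM29, 200 to 171 bases before the start, chr19:10928611-10928640, plus strand: ggggctctctGCGCCTGCGCgtctcgccta
TIMM29, 84 to 55 bases before the start, chr19:10928727-10928756, plus strand: GGtaaagttgGCGCTTGCGCagaagagact
SLC25A1, 250 to 95 bases before the start, chr22:19178831-19178986, minus strand: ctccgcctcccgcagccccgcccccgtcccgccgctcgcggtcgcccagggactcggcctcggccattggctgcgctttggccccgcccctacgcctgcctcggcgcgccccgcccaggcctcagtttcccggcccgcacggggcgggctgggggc

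TIMM10 held 2 matches to the ETS motif, TIMM13, TIMM23 and TIMM29 held 1 each, and TIMM23B held 2 in a row. TIMM29 also held 2 matches to the NRF1 motif, on either side of its ETS match. No letters of the 3 motifs were found in the windows of SLC25A1 and TIMM44. The windows of TIMM23 and TIMM23B aligned with 240 identical bases, 4 mismatched bases and 12 gap bases. Over all 71 windows, from 61 of the carriers and import subunits, the ETS motif was in 29.6%, against 8.52% of all 35116 RefSeq windows and 14.1% of those of tested genes. It was in 43.5% of import windows and 22.9% of carrier windows. The windows of genes that fell held it in 27.6% of cases (8 of 29) and those of genes that did not pass the test in 32.4% (11 of 34). The NRF1 motif was in 9.86% of the members' windows and in 8.75% of those of tested genes. The STAT motif was in 5 of 71 windows (7.04%), those of SLC25A11, SLC25A18, SLC25A23, SLC25A36 and SLC25A44. It was in 6.57% of all windows, in 5.41% of those of tested genes and in 0 of 23 import windows. A match is a description of letters, not of a bound site.

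The carriers for ADP, ATP and phosphate include the most abundant transcripts of the family. On the length-scaled FPKM values the largest mean over the 4 libraries was that of SLC25A6 with 833 FPKM, followed by SLC25A3 with 618 and SLC25A5 with 614. SLC25A6, an ADP/ATP exchanger on the X chromosome (X:1386152-1392724, GRCh38), was at 1065 and 1364 CPM with Ctrl shRNA against 792 and 767 CPM with STAT3 shRNA. The groups did not overlap, and Ctrl shRNA 2 stood well above the other 3 libraries. Its log2 fold change was -0.64 (SE 0.113; edgeR adjusted p = 0.00298). With an offset for GC content in each library it was -0.28, and limma on FPKM did not call it (adjusted p = 0.0646). SLC25A3, the phosphate carrier, fell from 667 and 709 to 490 and 531 CPM, a log2 fold change of -0.43 (SE 0.083; edgeR adjusted p = 0.00441). SLC25A4, the ADP/ATP exchanger best known from heart and muscle, fell from a low level of 27.0 and 31.0 CPM to 20.03 and 22.4 CPM (-0.45 on the log2 scale).

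The other ADP/ATP exchanger of this abundance, SLC25A5, did not pass the test. It was at 660 and 725 CPM with Ctrl shRNA and at 582 and 603 CPM with STAT3 shRNA, with a log2 fold change of -0.23 (95% interval -0.41 to -0.04; edgeR adjusted p = 0.0611), and DESeq2 called it lower (adjusted p = 0.0319). Its groups did not overlap either. SLC25A6 held 61.7% and 65.3% of the reads of the SLC25A5 and SLC25A6 pair with Ctrl shRNA, against 57.6% and 56.0% with STAT3 shRNA. SLC25A24, a calcium-regulated exchanger of ATP-magnesium for phosphate, rose from 57.9 and 52.3 to 75.4 and 78.7 CPM, a log2 fold change of 0.48 (SE 0.092; edgeR adjusted p = 0.00416), or 0.28 with GC offsets. SLC25A23 and SLC25A25, which belong to the same subgroup, had log2 fold changes of 0.09 and -0.09 and did not pass. Of the 7 tested genes of this role 3 fell and 1 rose (57.1% changed, beside 35.5% of all tested genes). Leaving out STAT3 shRNA 1 ended the calls of SLC25A3 (adjusted p = 0.0939) and SLC25A4 (0.193), and leaving out STAT3 shRNA 2 those of SLC25A4 (0.0536) and SLC25A24 (0.0569), all by edgeR.

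Among the carriers of citrate and other organic acids 2 of 5 fell and 0 rose (40% changed, beside 35.5% of all tested genes). SLC25A1, which exports citrate to the cytosol where it feeds fatty acid synthesis, was at 189.5 and 233 CPM with Ctrl shRNA and at 114 and 126 CPM with STAT3 shRNA. Both STAT3 shRNA libraries lay far under both controls, and the log2 fold change of -0.82 (SE 0.112; 1.77-fold lower; edgeR adjusted p = 0.000813) was the largest fall among the tested carriers. SLC25A1 was also the single carrier called under every alternative scaling, filter, term, tool, unit and left-out library that was tried, although its log2 fold change shrank to -0.45 with GC offsets. SLC25A11, the oxoglutarate/malate exchanger of the malate-aspartate shuttle, fell from 100.5 and 114.5 to 70.7 and 76.8 CPM (log2 fold change -0.54, SE 0.096; edgeR adjusted p = 0.00297). With limma on the deposited FPKM the value was -0.15 and the call was lost (adjusted p = 0.273). RNF167, on the other strand of the same span, held 147.8% as many reads and did not pass the test (log2 fold change -0.02; edgeR adjusted p = 0.902). SLC25A10, the dicarboxylate carrier, overlapped between groups at 93.1 and 111.9 against 93.1 and 95.6 CPM. Its call turned with the processing: edgeR called it higher with GC offsets (0.24; adjusted p = 0.0207) and lower without Ctrl shRNA 1 (-0.27; adjusted p = 0.00618). SLC25A20 and SLC25A21, which carry acylcarnitines and oxoadipate, did not pass either.

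Of the 8 tested amino acid carriers 4 fell and 0 rose (50% changed, beside 35.5% of all tested genes). Their median log2 fold change was -0.32. SLC25A12 and SLC25A13, the calcium-regulated aspartate/glutamate exchangers that form the other arm of the malate-aspartate shuttle, both fell. SLC25A13, the form typical of liver, went from 111 and 101.4 to 72.4 and 72.3 CPM (log2 fold change -0.55, SE 0.086; edgeR adjusted p = 0.00164). SLC25A12 went from 40.1 and 43.2 to 27.6 and 26.7 CPM (-0.62, SE 0.099; adjusted p = 0.00182 by the same test). SLC25A12 held 26.5% and 29.9% of the reads of this pair with Ctrl shRNA and 27.6% and 27.0% with STAT3 shRNA, so the shares overlapped between groups. With limma on FPKM the adjusted p was 0.0878 for SLC25A12 and 0.0807 for SLC25A13. SLC25A29, a carrier of basic amino acids and the most abundant of this role after SLC25A13 in FPKM, was at 64.4 and 76.7 against 52.0 and 53.9 CPM.

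SLC25A22, a glutamate carrier, was at 51.7 and 62.0 against 44.9 and 46.4 CPM, and its log2 fold change of -0.32 only just passed (edgeR adjusted p = 0.0484). With GC offsets its sign turned, to 0.0086 (adjusted p = 0.943). Without Ctrl shRNA 2 its value was -0.18 (adjusted p = 0.104), and without STAT3 shRNA 1 or 2 its adjusted p was 0.278 and 0.201. SLC25A29 was at -0.41 and lost its call with GC offsets (-0.22, edgeR adjusted p = 0.0546), but not with GC offsets and a replicate block (-0.22, 0.0383). Its call was also lost without STAT3 shRNA 1 (log2 fold change -0.39) or STAT3 shRNA 2 (-0.44). The carriers of glycine (SLC25A38, -0.32) and ornithine (SLC25A15, -0.22) did not pass. SLC25A44, which takes up branched-chain amino acids, was at 0.17 on the log2 scale, and SLC25A18 was near the detection limit at 0.58 to 1.09 CPM.

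Among the carriers of cofactors, nucleotides, glutathione and iron 10 of 13 did not pass, 2 fell and 1 rose. Thus 23.1% changed, beside 35.5% of all tested genes, and the median log2 fold change was 0.02. SLC25A39, which imports glutathione and had the highest FPKM of this role (204), was at 283 and 309 CPM with Ctrl shRNA and at 227 and 222 CPM with STAT3 shRNA, a log2 fold change of -0.40 (SE 0.083; edgeR adjusted p = 0.00633). SLC25A40, its closest relative, went the other way, from 22.9 and 20.2 to 26.8 and 31.6 CPM (0.43, SE 0.124; edgeR adjusted p = 0.0251). The 2 relatives thus had opposite signs at very different levels. With GC offsets both values shrank and lost their calls, to -0.18 for SLC25A39 (edgeR adjusted p = 0.0504) and 0.27 for SLC25A40 (0.0649). With GC offsets and a replicate block both only just passed (edgeR adjusted p = 0.0454 and 0.0494). DESeq2 called SLC25A39 (adjusted p = 0.000158) but not SLC25A40 (0.0515), and limma on log2(FPKM + 1) called neither (0.0578 and 0.463). SLC25A40 shares its span with DBF4 on the other strand, which held 180.3% as many reads and rose by 0.38. SLC25A26, the importer of S-adenosylmethionine, fell from 21.6 and 22.9 to 15.9 and 17.3 CPM (log2 fold change -0.43). Leaving out STAT3 shRNA 1 ended the calls of SLC25A39 (adjusted p = 0.0697) and SLC25A26 (0.212), and leaving out STAT3 shRNA 2 those of SLC25A39 (0.0934), SLC25A26 (0.0869) and SLC25A40 (0.26), by edgeR.

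Those that did not pass include the iron importers SLC25A37 (0.09) and SLC25A28 (-0.31), the NAD carrier SLC25A51 (0.23), the folate carrier SLC25A32 (-0.09), the coenzyme A carrier SLC25A42 (0.06) and the pyrimidine nucleotide carriers SLC25A33 (0.02) and SLC25A36 (0.13), all as log2 fold changes. SLC25A28 had non-overlapping groups, at 20.2 and 25.2 against 17.6 and 19.0 CPM, with an adjusted p of 0.104 (edgeR).

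Of the 8 tested uncoupler-like carriers and carriers of other or uncertain role, 1 changed (12.5%, beside 35.5% of all tested genes). SLC25A35, whose substrate is not settled, fell from 10.9 and 11.97 to 7.84 and 7.99 CPM, a log2 fold change of -0.53 (SE 0.156; edgeR adjusted p = 0.0287). It shares its span with RANGRF on the other strand, which held 386.3% as many reads and fell by 0.63. The SLC25A35 call was lost without Ctrl shRNA 2 (adjusted p = 0.0622), STAT3 shRNA 1 (0.171) or STAT3 shRNA 2 (0.144), with GC offsets (-0.32; 0.12) and by DESeq2 (0.0774). SLC25A46, an outer membrane protein involved in mitochondrial shape and the one with the highest FPKM of this role, was at 46.6 and 45.5 against 50.2 and 48.1 CPM, with a log2 fold change of 0.10 (95% interval -0.11 to 0.30).

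**Figure D2:**
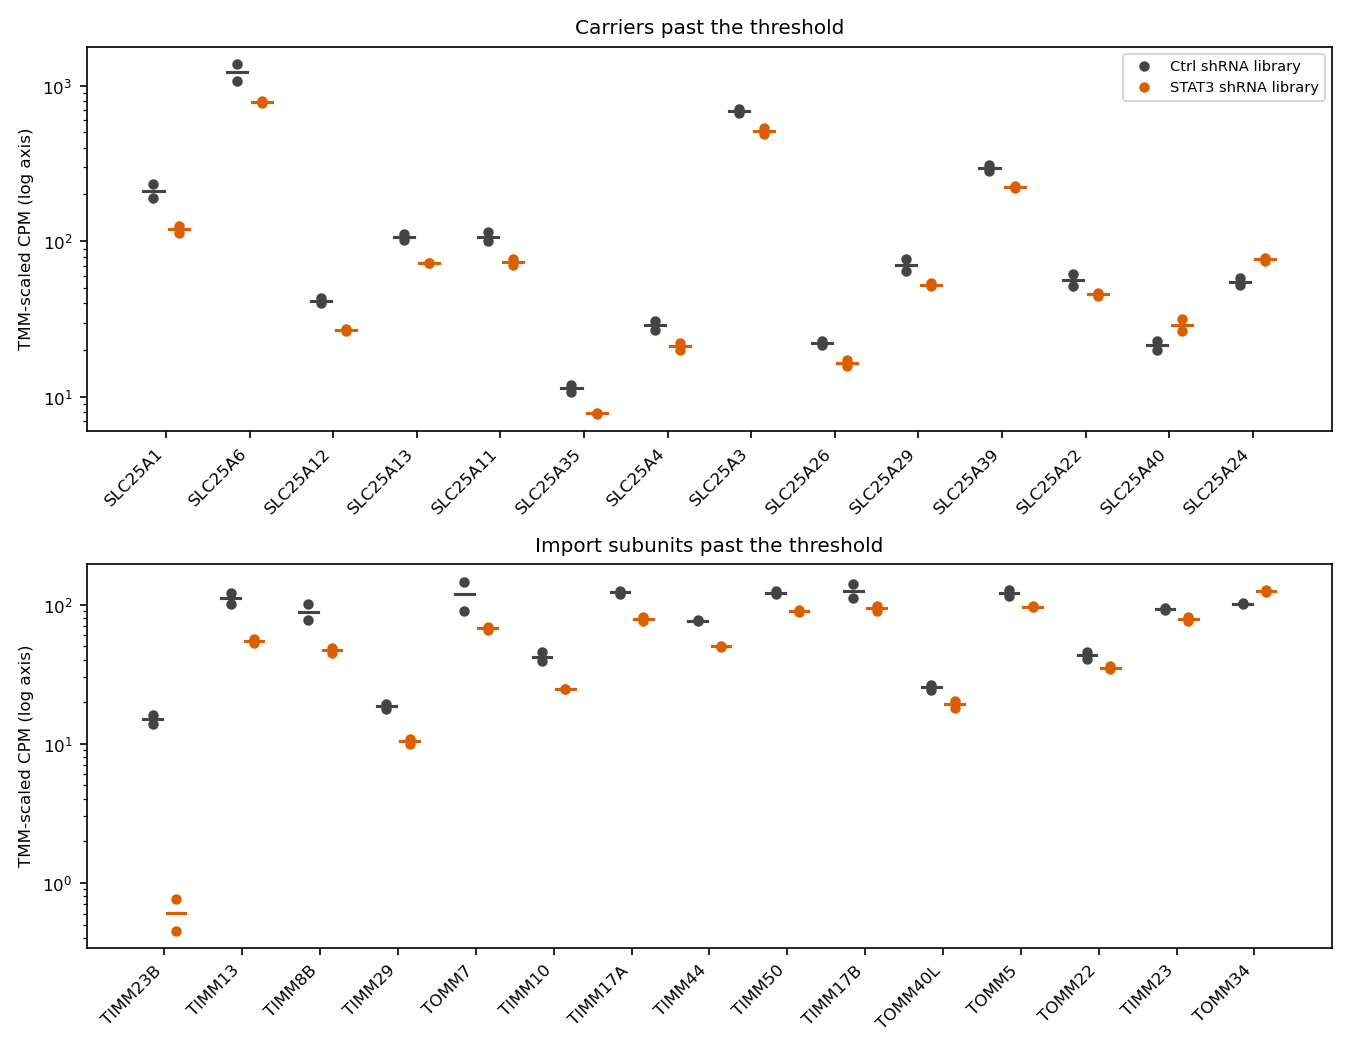
TMM-scaled CPM (log axis) of the 14 carriers and 15 import subunits with an adjusted p under 0.05; each point is 1 library, bars are means of 2 libraries, grey for Ctrl shRNA and orange for STAT3 shRNA. TIMM23B drops from 13.8 and 16.1 CPM to under 1 CPM, TOMM7 has the widest gap between its Ctrl shRNA libraries, and SLC25A24, SLC25A40 and TOMM34 are the ones higher with STAT3 shRNA.

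The role of the outer membrane translocase was given to all genes with TOMM symbols. Of these 4 of 8 tested genes fell and 1 rose (62.5% changed, beside 35.5% of all tested genes). The median log2 fold change was -0.29. The one that rose was TOMM34, a cytosolic cochaperone described below. TOMM7, a small subunit that also takes part in PINK1 retention on damaged mitochondria, was at 90.6 and 146 CPM with Ctrl shRNA and at 68.7 and 66.1 CPM with STAT3 shRNA (log2 fold change -0.81, SE 0.185; edgeR adjusted p = 0.00946). Its control libraries lay far apart: without Ctrl shRNA 2 the value was -0.43, still past the threshold, and DESeq2 gave an adjusted p of 0.058. TOMM5, another small subunit, fell from 115 and 127 to 96.1 and 97.2 CPM (-0.33). TOMM40L, a relative of the pore-forming subunit, fell from 24.3 and 26.4 to 20.4 and 18.1 CPM (-0.39). The pore-forming subunit itself, TOMM40, was not among the gene names of the count table, so these counts do not cover it. TOMM22, the central receptor, was at 40.6 and 45.7 against 35.9 and 34.3 CPM (log2 fold change -0.30; edgeR adjusted p = 0.0499). On the deposited FPKM TOMM22 had the opposite sign, 0.03 by limma, and did not pass. TOMM6, the most abundant of the group on the FPKM scale (367), was at 126 and 151 against 113 and 117 CPM and did not pass (-0.27; edgeR adjusted p = 0.0616), while DESeq2 gave 0.0471.

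TOMM20 and TOMM70, the cargo receptors, did not pass the test. TOMM20, which binds presequences, was at 391 and 350 against 404 and 427 CPM (log2 fold change 0.16, 95% interval -0.03 to 0.36), and TOMM70, which receives carriers and other proteins from cytosolic chaperones, was at 174 and 165 against 186 and 188 CPM (0.14, interval -0.04 to 0.32). With GC offsets both signs turned, to -0.0172 for TOMM20 and -0.0215 for TOMM70. TOMM34, a cytosolic cochaperone that binds Hsp70 and Hsp90, was the import gene that rose, from 101 and 103 to 124 and 127 CPM (log2 fold change 0.30, SE 0.080; edgeR adjusted p = 0.0176). Leaving out STAT3 shRNA 1 ended the edgeR calls of TOMM34 (adjusted p = 0.146), TOMM5 (0.174), TOMM40L (0.0872) and TOMM22 (0.223), and leaving out STAT3 shRNA 2 ended the same calls (0.202, 0.148, 0.262 and 0.347). TOMM22 also lost its call without Ctrl shRNA 2 (0.0867).

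In the presequence translocase 6 of 7 tested genes fell and 0 rose (85.7% changed, beside 35.5% of all tested genes). The median log2 fold change was -0.43. TIMM17A, a channel subunit known for its rapid turnover under stress, was at 126 and 120 CPM with Ctrl shRNA and at 76.3 and 81.2 CPM with STAT3 shRNA (log2 fold change -0.64, SE 0.084; edgeR adjusted p = 0.000696). Its paralog TIMM17B had the highest FPKM of the complex (157) and fell from 111 and 139.9 to 89.8 and 98.2 CPM (-0.42; edgeR adjusted p = 0.0216). TIMM17B made up 47.0% and 53.8% of the pair's reads with Ctrl shRNA, against 54.1% and 54.7% with STAT3 shRNA. TIMM44, which ties the import motor to the channel, fell from 75.9 and 77.4 to 50.7 and 49.2 CPM, the tightest libraries of the complex (log2 fold change -0.62, SE 0.085; edgeR adjusted p = 0.000862). Its value with GC offsets was -0.38 and still passed.

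TIMM50, the receptor on the intermembrane side, fell from 119 and 125 to 92.1 and 88.9 CPM (log2 fold change -0.43; edgeR adjusted p = 0.00427). On the deposited FPKM it was at 134 and 133 against 144 and 138, and limma gave 0.08 there with no call (adjusted p = 0.525). TIMM21, which links the complex to TOM and to respiratory chain assembly, was the one that did not pass, with overlapping groups at 30.6 and 26.4 against 27.3 and 31.9 CPM. TIMM17B lost its call with GC offsets (-0.26, edgeR adjusted p = 0.0617), but not with GC offsets and a replicate block (-0.25, 0.0152). PQBP1, on the other strand of TIMM17B with 104.8% as many reads, fell by 0.50. With limma on FPKM TIMM17A was at -0.33 (adjusted p = 0.0666). Leaving out STAT3 shRNA 1 ended the edgeR call of TIMM17B (adjusted p = 0.153), leaving out STAT3 shRNA 2 that of TIMM50 (0.074), and without Ctrl shRNA 2 TIMM17B was at -0.25 and still passed.

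TIMM23B showed by far the largest difference. It is a near-identical copy of TIMM23, the channel-forming subunit, on the same chromosome: TIMM23 lies at 10:45972449-46003734 and TIMM23B at 10:49942033-49974850 (GRCh38, both plus strand), and 54.0% of the longest TIMM23 transcript aligns to it at 95% identity or more. TIMM23B had 260 and 307 reads with Ctrl shRNA (13.8 and 16.1 CPM) and 12 and 14 reads with STAT3 shRNA (0.450 and 0.761 CPM). Both STAT3 shRNA libraries were thus under 1 CPM, and the log2 fold change was -4.66 (SE 0.264; 25.3-fold lower; edgeR adjusted p = 1.2e-05). The deposited FPKM gave the same picture, with 35.7 and 43.7 against 1.73 and 1.56. Of the genes that overlap TIMM23B neither passed the test: PARG, which overlaps it on the other strand with 306.7% as many reads, had a log2 fold change of 0.32 (edgeR adjusted p = 0.101), and LINC00843, on the same strand with 30.4% as many reads, one of -0.56 (0.208). Of the 20 nearest tested genes 2 rose and 2 fell, with a median of 0.02, while 16.8% of all tested genes rose and 18.7% fell.

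TIMM23 itself was at 91.8 and 94.998 against 75.6 and 81.1 CPM, a log2 fold change of -0.25 at the edge of the threshold (edgeR adjusted p = 0.0449). TIMM23 lost its call in 8 of 15 alternatives. Among these were upper-quartile scaling (edgeR adjusted p = 0.0931), the replicate block (edgeR, 0.0609), DESeq2 (0.0559) and limma on log2(FPKM + 1) (0.153). The call was also lost without STAT3 shRNA 1 (log2 fold change -0.20) or STAT3 shRNA 2 (-0.31). TIMM23B held 13.1% (95% Wilson interval 11.6% to 14.6%) and 14.5% (13.0% to 16.0%) of the pair's reads with Ctrl shRNA. With STAT3 shRNA it held 0.592% (0.339% to 1.03%) and 0.929% (0.554% to 1.55%). These intervals cover counting error only. Since the authors' counting could divide reads of the copies between them, the sum is the safer quantity: it went from 105.6 and 111.1 to 76.0 and 81.9 CPM, a log2 fold change of -0.46 (SE 0.086; edgeR adjusted p = 0.00397). How reads with equal matches to both genes were assigned is not given in the sources used here.

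**Figure D3:**
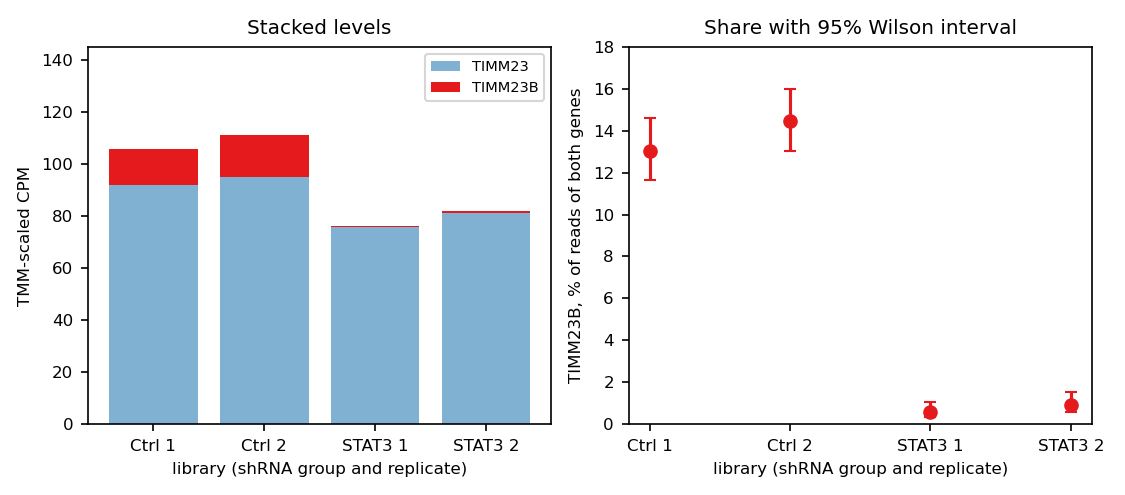
Left, TMM-scaled CPM of TIMM23 and TIMM23B stacked for each library; right, the share of the pair's reads assigned to TIMM23B, with 95% Wilson intervals that cover counting error only. The share is 13.1% and 14.5% in the Ctrl shRNA libraries and under 1% in both STAT3 shRNA libraries, while the TIMM23 part of the bars falls far less.

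In the carrier translocase and the small TIM chaperones 4 of 8 tested genes fell and none of the 8 rose. Thus 50% changed, beside 35.5% of all tested genes, and the median log2 fold change was -0.48. TIMM13, a small chaperone that works as a hexamer with TIMM8A or TIMM8B, was at 101 and 121 CPM with Ctrl shRNA and at 52.9 and 56.9 CPM with STAT3 shRNA, 2.03-fold lower (log2 fold change -1.02, SE 0.105; edgeR adjusted p = 0.000224). TIMM8B, which had the highest FPKM here (118), went from 77.7 and 100.3 to 49.1 and 45.2 CPM (-0.92, SE 0.126; edgeR adjusted p = 0.000834). TIMM10, which pairs with TIMM9 in the hexamer that escorts carriers, went from 39.2 and 45.2 to 24.6 and 24.8 CPM (-0.77, SE 0.108; edgeR adjusted p = 0.000914). TIMM29, a subunit of the TIM22 complex found in animals, went from 17.9 and 19.3 to 10.8 and 9.89 CPM (-0.84, SE 0.136; edgeR adjusted p = 0.00196). In all 4 genes the STAT3 shRNA libraries lay close together and well under both controls, and all 4 stayed called under each alternative scaling, filter, term, tool, unit and left-out library.

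TIMM9, TIMM8A, TIMM22 and TIMM10B did not pass. TIMM9 overlapped between the groups at 31.2 and 25.8 against 31.1 and 28.9 CPM (log2 fold change 0.08, 95% interval -0.19 to 0.35), beside -0.77 for TIMM10. TIMM8A was at 38.5 and 36.0 against 32.1 and 33.4 CPM (-0.19, interval -0.41 to 0.03), beside -0.92 for TIMM8B. With GC offsets TIMM8A was called lower, at -0.34 (edgeR adjusted p = 0.0111). TIMM8B held 66.9% and 73.6% of the reads of the TIMM8 pair with Ctrl shRNA and 60.4% and 57.5% with STAT3 shRNA, so the shares did not overlap. TIMM22, the channel of the complex, and TIMM10B were at -0.18 and -0.15 and did not pass. TIMM13 shares its span with LMNB2 on the same strand, which held 277.4% as many reads and fell by 0.26. TIMM8B shares its own with SDHD on the other strand, with 122.6% as many reads and a log2 fold change of -0.24 (edgeR adjusted p = 0.0512). NKAPD1, also on the other strand of TIMM8B, held 66.6% as many reads and was at 0.08 (edgeR adjusted p = 0.536). TIMMDC1, an assembly factor of respiratory complex I that is related to the TIM channel proteins, was at 104.8 and 105.2 against 88.1 and 92.1 CPM and did not pass (-0.22; edgeR adjusted p = 0.0623). TIMMDC1 was called lower with GC offsets (-0.36; adjusted p = 0.00411), without Ctrl shRNA 1 (0.0116) and without Ctrl shRNA 2 (0.0287), while limma on FPKM gave 0.27 with no call.

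Per length, import transcripts were more abundant than carrier transcripts: the median of the mean FPKM was 71.9 for tested import subunits and 17.6 for tested carriers, beside 10.1 for all tested genes. The summed FPKM of the carriers were 3235 and 3853 with Ctrl shRNA and 2640 and 2733 with STAT3 shRNA. For the import subunits the sums were 2306 and 2743 against 1874 and 1992. With STAT3 shRNA both sums lay under those of either control library, as did the sum over all tested genes (835210 and 973310 against 776020 and 787770 FPKM). The sum of the carriers rests mainly on SLC25A3, SLC25A5 and SLC25A6. In both classes, as over all tested genes, these sums differed more between the Ctrl shRNA libraries than between the STAT3 shRNA libraries.

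Several measured properties moved with the log2 fold change across the 65 tested members, which share the 4 libraries and are not independent. The Spearman correlation was -0.34 with the GC content of the longest transcript, 0.40 with its length, -0.43 with the mean FPKM and 0.30 with the median log2 fold change of the nearest tested genes. Over all tested genes the correlation with GC content had the same value, -0.34, and the difference of Ctrl shRNA 2 from Ctrl shRNA 1 correlated with GC content at 0.47. Across the members the log2 fold change correlated at -0.59 with that difference, to which it is tied through the shared control libraries. Of the 26 members that fell, 24 were higher in Ctrl shRNA 2 than in Ctrl shRNA 1, compared with 2180 of the 2844 genes that fell among all tested genes and 7514 of all 15199. Without Ctrl shRNA 2 the edgeR test still called 26 of the 29 changed members, and 14 carriers and 15 import subunits in all. Without STAT3 shRNA 1 it called 7 carriers and 9 import subunits, and without STAT3 shRNA 2 it called 6 and 9. These fits estimate the spread from the controls only, and the number of all genes called dropped as well, to 2680 and 2731. The median GC content was 49.96% for carriers, 46.5% for import subunits and 48.7% for all tested genes. With GC offsets 13 carriers and 16 import subunits were called.

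By position, SLC25A12 (2:171784370-171999859, minus strand, GRCh38) stood among genes that mostly fell: 12 of its 20 nearest tested genes were lower and 0 higher, with a median of -0.42. HAT1, which overlaps it on the other strand with 194.1% as many reads, fell by 0.84. METAP1D, also on the other strand of SLC25A12 with 23.9% as many reads, was at 0.06 (edgeR adjusted p = 0.804). The neighbours of SLC25A22 on chromosome 11 were similar, with 11 of 20 lower, 0 higher and a median of -0.40. Among the 7 members called under each alternative fit, the neighbours of TIMM44 had a median of -0.28 (7 lower, 0 higher), those of TIMM13 of -0.21 (5 lower, 0 higher) and those of TIMM29 of -0.18 (8 lower, 1 higher). The neighbours of SLC25A1 had a median of -0.01 (2 lower, 4 higher) and those of TIMM8B of -0.12 (3 lower, 0 higher). Those of TIMM10 had a median of -0.07 and those of TIMM23B of 0.02 (2 lower and 2 higher for each). Each of these counts is out of 20 genes, and over all tested genes 18.7% were lower and 16.8% higher. In all, 15 tested members share a span with a gene that held at least 20% as many reads. Of these 8 changed, beside 29 of all 65 tested members and 35.5% of all tested genes. The use of strand in counting is not given in the sources used here, so reads of such genes cannot be told apart, and the part of these overlaps in the results was not tested.

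**Figure D4:**
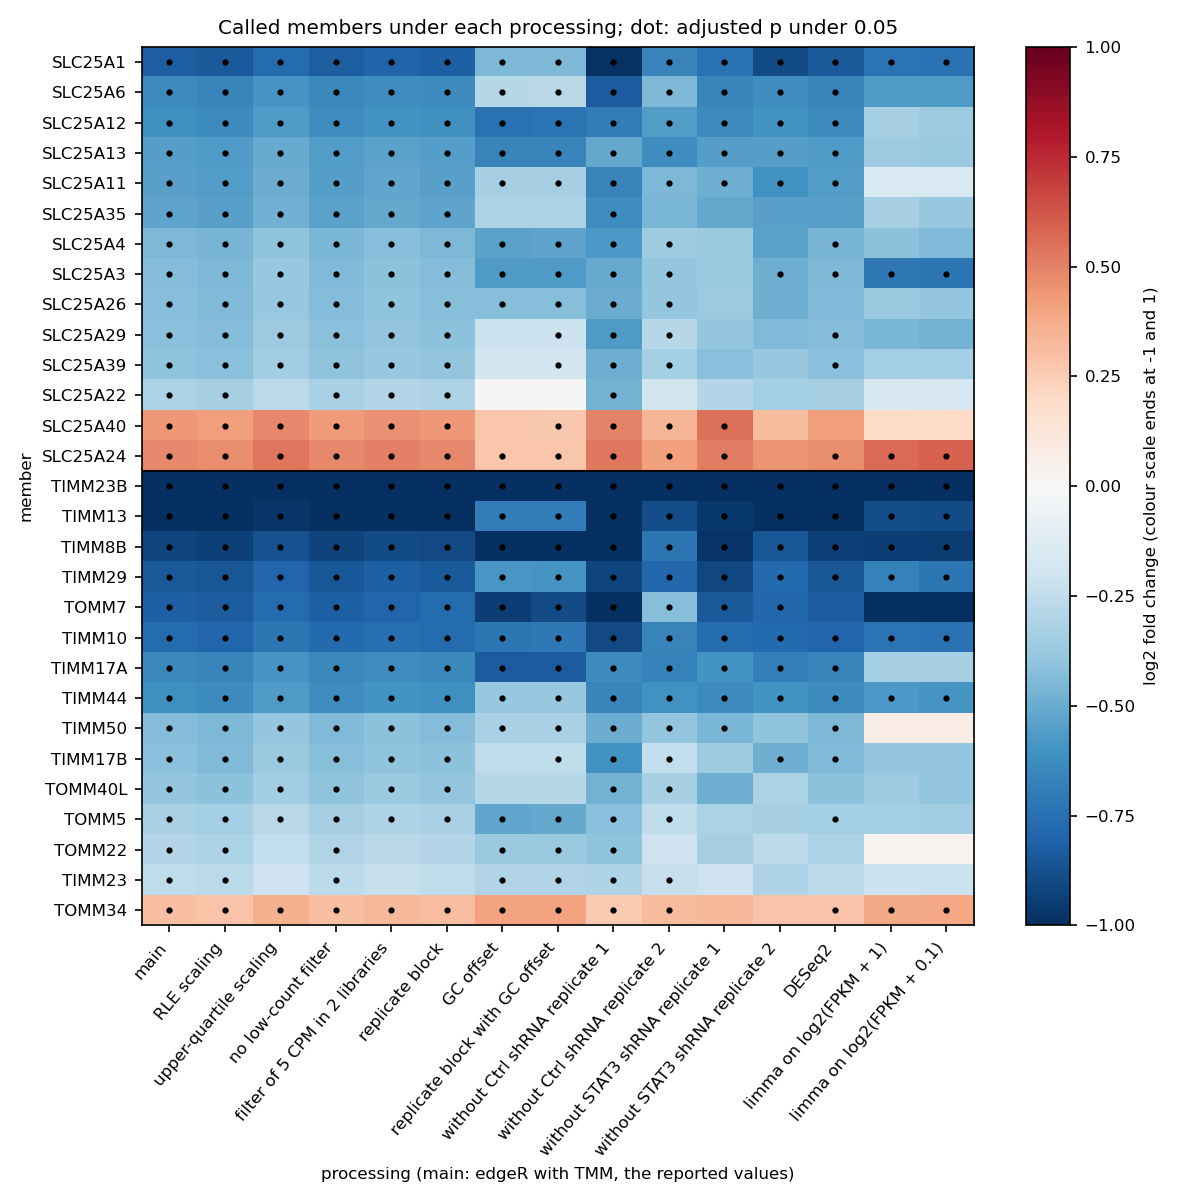
Log2 fold change (colour) of the 29 changed members under the reported processing (main) and each alternative on the x axis, with a dot where the adjusted p is under 0.05; carriers are above the line and import subunits below it. SLC25A1, TIMM8B, TIMM10, TIMM13, TIMM23B, TIMM29 and TIMM44 carry a dot in every column.

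Proteins that work with these complexes were followed through 3 lists of other symbols. Of 38 genes 37 were tested: 1 rose, 14 fell and 22 failed the threshold (median -0.15 on the log2 scale). Thus 40.5% changed, beside 35.5% of all tested genes, and 37.8% fell, beside 18.7%. In the list of import motor, proteases and folding 6 of 15 fell (40%) and none of the 15 rose. HSPE1, the cochaperonin of the matrix, was at 217 and 219.5 against 86.5 and 79.0 CPM (log2 fold change -1.40, SE 0.086; edgeR adjusted p = 1.66e-05), and ROMO1, a small inner membrane protein, at 54.5 and 75.1 against 25.7 and 23.7 CPM (-1.39, SE 0.150; edgeR adjusted p = 0.000273). Both changes exceeded that of TIMM13 in size. In the list of insertion and intermembrane space folding 6 of 10 fell (60%) and none of the 10 rose. The largest falls there were those of MTX2 and MTCH1. MTX2, a partner of the outer membrane sorting machinery, was at 36.5 and 41.4 against 21.0 and 22.7 CPM (-0.83). MTCH1, an outer membrane insertase, was at 237.8 and 313 against 177 and 186 CPM (-0.60, or -0.39 without Ctrl shRNA 2).

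Of the 12 tested transporters outside the SLC25A symbols 2 fell and 1 rose (25% changed, beside 35.5% of all tested genes). VDAC2, an outer membrane channel, went from 279.9 and 284 to 185 and 207 CPM (log2 fold change -0.52) and UCP2, an uncoupling protein that belongs to the carrier family by sequence, from 33.5 and 29.3 to 20.3 and 23.8 CPM (-0.52). Without STAT3 shRNA 1 the edgeR calls of VDAC2 (adjusted p = 0.0511) and UCP2 (0.149) were lost. SFXN2, a sideroflexin, rose from 11.5 and 10.2 to 20.6 and 21.1 CPM (0.94, SE 0.131; edgeR adjusted p = 0.000917).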

How the data were processed

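The values used were raw read counts per gene and FPKM per gene, both deposited by the authors as tables of all 4 libraries, per the file headers. The authors' aligner, counter, annotation, genome build and strand setting: not given in the sources used here. Columns were matched to samples by name; "Si" in 2 column names is not explained by the labels and was read as STAT3 shRNA. The count test was edgeR's two-sided quasi-likelihood test (version 4.0.16, R 4.3.3) with TMM factors, filterByExpr and a group term alone. P-values were adjusted by Benjamini-Hochberg over 15199 genes, with a threshold of 0.05. SE is the log2 fold change divided by the root of F. The test was tested on simulated data first. Depth was 17694642 to 25862027 reads per library. FPKM served for levels between genes and for limma 3.58.1 on log2(FPKM + 1) and log2(FPKM + 0.1), where fold changes of low genes are understated. Positions, lengths and GC content came from GENCODE 29 by Ensembl ID without version, which matched 25996 of 27452 genes and all 71 members. Copies were sought with blastn 2.17.0 (at least 95% identity over 50% of a transcript). Among genes that do not overlap the member, this rule gave TIMM23B as a copy of TIMM23 and no other pair. The further copies in the sums, such as pseudogenes named after a member, were taken by symbol. Promoter windows are from RefSeq (GRCh38.p14); stretches inside GENCODE 29 exons were not printed beyond 30 bases around a match.

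Named genes were, per role, up to 3 largest rises and falls past the threshold and the gene with the highest FPKM, and up to 2 per partner list; other members are given more briefly, and SLC25A5, SLC25A10, TIMM8A, TIMM9, TOMM20 and TOMM70 were chosen after their values were seen. Members and lists were chosen with earlier results of these data known. Alternatives were RLE and upper-quartile scaling, other filters, a replicate block, GC offsets, leaving out each library, DESeq2 1.42.0, limma, a threshold of 0.01, a test against a fold of 1.2 and sums with copies. The values of 1 member are not reported here.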

Additional observations from a re-analysis of the deposited data

How the results depend on the processing

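With 2 libraries a group, the spread is poorly known, and depth limits SLC25A18, SLC25A53 and the 6 untested members. Of the 29 changed members, 7 (6 import subunits and SLC25A1) kept their call under every alternative other than the stricter thresholds, which were counted only. The other 22 lost it in at least 1. For TIMM23B the sum with copies is a value of the pair with TIMM23 (-0.46), not of TIMM23B alone. RLE scaling kept 29 calls, DESeq2 21 and limma on FPKM 10. No scaling moved the median of all genes by more than 0.1. Limma on log2(FPKM + 1) and log2(FPKM + 0.1) called 2535 and 2494 of all genes, 11 members each (4 carriers, 7 import subunits) and 8 partners. A test against a fold of 1.2 called 2901 genes, 14 members (6 and 8) and 9 partners, and a threshold of 0.01 called 2897 genes and 17 members (8 and 9). Leaving out 1 library gave 2680 to 7317 genes, 15 to 39 members, 6 to 21 carriers, 9 to 18 import subunits and 9 to 19 partners, with medians of -0.11 to -0.0888 for carriers and -0.42 to -0.24 for import subunits. The lowest counts came without a STAT3 shRNA library and the highest without Ctrl shRNA 1. The carrier median was -0.0403 with upper-quartile scaling, -0.13 without a filter, -0.0701 with the 5 CPM filter and -0.0584 and -0.0631 in the limma fits.

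Signs turned with GC offsets for SLC25A22 (0.0086, with the block 0.0106), SLC25A10 (0.2446 and 0.2458), SLC25A46 (-0.0356 and -0.0319), TIMM9 (-0.1036 and -0.1054), TOMM20 (-0.0172 and -0.0173) and TOMM70 (-0.0215 and -0.0214). With limma they turned for TIMM50 (0.0768 and 0.0773), TOMM22 (0.0332 and 0.0343), TIMMDC1 (0.2729 and 0.2756) and SLC25A10 (0.0984 and 0.0999), and without Ctrl shRNA 2 for SLC25A10 and TIMM9, whose values over the fits without 1 library ran from -0.2746 to 0.0172 and from -0.0543 to 0.1948. The cause was not tested. Same-numbered libraries did not deviate together (correlation -0.0286). This rests on 1 difference per group, so it cannot tell whether the numbers pair the libraries. A replicate block called 5447 genes, 28 members, 14 carriers, 14 import subunits and 15 partners.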

Other observations

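The deposited counts and FPKM of the same libraries differed in direction for some import genes. TIMM50 was at 134 and 133 FPKM with Ctrl shRNA and 144 and 138 FPKM with STAT3 shRNA, while its CPM fell from 119 and 125 to 92.1 and 88.9. TIMMDC1 was at 89.3 and 80.5 against 101 and 104 FPKM, while its CPM went from 104.8 and 105.2 to 88.1 and 92.1. How the lengths behind the FPKM were set is not given in the sources used here.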
